A study of Homo sapiens with 15 samples.

Results

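The genes described here are 10 that act in oxidation by cytochrome P450 or control it: the P450 genes CYP24A1, CYP2S1, CYP1A1, CYP1B1, CYP4F11, CYP4F3 and CYP27A1, the receptors VDR and AHR, and the reductase POR. They were taken by symbol from the 43388 gene rows of each count file, and were chosen with earlier results of these data known. Counts of calls among them are therefore a description. RNA was sequenced from A549 cells, a line of human lung adenocarcinoma with alveolar epithelial features, labelled as wild type (WT). The labels give a 24 hour treatment with 1e-05 mM ATRA (all-trans retinoic acid, a hormone made from vitamin A) or with the ethanol vehicle, followed by 72 hours in 95% oxygen (hyperoxia) or 21% oxygen (normoxia). There were 3 libraries with ATRA and 2 with vehicle at each oxygen exposure. The labels of another 2 libraries per exposure name neither ATRA nor vehicle, and these are called untreated libraries below. All 6 groups share the same line and culture medium with serum, and 1 further library with discordant labels entered no comparison. The labels do not say that libraries came from separate cultures, so p-values measure only the spread between these libraries, which may be technical.

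Cytochrome P450 enzymes are heme proteins that insert an oxygen atom into lipids, hormones, vitamins and foreign compounds. Those of the endoplasmic reticulum receive electrons from the reductase encoded by POR, whereas CYP24A1 and CYP27A1 sit in mitochondria and are fed through ferredoxin by FDXR. The vitamin D receptor (VDR) pairs with the retinoid X receptor on DNA and raises CYP24A1, the 24-hydroxylase that inactivates the vitamin D hormone, and the aryl hydrocarbon receptor (AHR) pairs with ARNT and raises CYP1A1 and CYP1B1.

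RefSeq promoters of GRCh38.p14 were found for 6 of the 10 genes. No entry was found for CYP24A1, CYP1B1, VDR and POR. The window runs from 250 to 21 bases before the start of transcription and is 230 bases long. CYP2S1 (chr19:41192969-41193198, plus strand) is shown because its level followed ATRA, and the capitals mark a nuclear receptor half-site, AGGTCA on the opposite strand, 181 to 176 bases before the start. CYP1A1 (chr15:74725549-74725778, minus strand) is shown because it is the classical target of AHR, and the capitals mark GCGTG, the core of the element bound by AHR and ARNT, 57 to 53 bases before the start, and a TATAAA box 32 to 27 bases before it. The second start site of CYP4F11 (chr19:15934550-15934779, minus strand) and the start of CYP4F3 (chr19:15641062-15641291, plus strand) are shown because hyperoxia with vehicle raised CYP4F11 whereas CYP4F3 was not called, a difference between the genes that was not tested.
CYP2S1: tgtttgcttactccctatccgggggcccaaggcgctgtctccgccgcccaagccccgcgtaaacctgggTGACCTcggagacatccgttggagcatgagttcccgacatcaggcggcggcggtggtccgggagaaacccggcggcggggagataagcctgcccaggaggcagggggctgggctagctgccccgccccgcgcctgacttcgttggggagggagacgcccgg
CYP1A1: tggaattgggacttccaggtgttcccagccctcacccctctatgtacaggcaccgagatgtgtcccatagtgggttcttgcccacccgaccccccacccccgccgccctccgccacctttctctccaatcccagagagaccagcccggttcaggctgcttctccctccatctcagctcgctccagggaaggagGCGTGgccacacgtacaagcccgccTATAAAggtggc
CYP4F11: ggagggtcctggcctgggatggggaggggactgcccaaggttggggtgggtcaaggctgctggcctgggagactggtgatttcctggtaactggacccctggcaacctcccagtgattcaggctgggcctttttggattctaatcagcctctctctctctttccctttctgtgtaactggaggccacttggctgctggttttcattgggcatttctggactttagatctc
CYP4F3: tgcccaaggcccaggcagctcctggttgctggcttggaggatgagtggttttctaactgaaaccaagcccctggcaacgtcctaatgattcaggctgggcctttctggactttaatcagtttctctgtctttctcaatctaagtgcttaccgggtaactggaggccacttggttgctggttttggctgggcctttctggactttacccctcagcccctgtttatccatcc
The 2 CYP4F windows shown were identical at 154 of 209 aligned positions (73.7%), and neither held one of the motifs searched. Both lie within the gene spans given below. The window of the first CYP4F11 start site, not shown, aligned with that of CYP4F3 over only 21 positions, 17 of them identical. Over 35116 promoter windows of the same length, AGGTCA stood in 11.3% and GCGTG in 30.0%, each counted on both strands, and TATAAA stood in 6.63% on the gene's own strand. AGTTCA, the other half-site searched, stood in 8.17% and was held by the CYP27A1 window. A match describes the letters of the window and is not a binding measurement.

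Counts on genes ranged from 2642377 to 5605072 per labelled library, so that 3 counts correspond to 0.535 to 1.14 CPM (counts scaled to a common library total, here with TMM normalization factors). Between 12657 and 20108 genes had a count. One untreated hyperoxia library stood apart from the other 13 libraries, with the fewest genes detected and a first principal component of -198.9 against -9.27 to 35.64, and the hyperoxia effects in untreated libraries are given with and without it. The keratin genes KRT8, KRT18 and KRT7 were high in every library (at least 507.6 CPM each), whereas EPCAM was at 0 in 3 libraries. CDKN2A, which is deleted in A549, had 0 counts in all 14. Of 10 markers of other cell types, CD68 had 76 to 517 counts per library. The others were lower, at most 1 count for PTPRC, 4 for PECAM1, PDGFRB and PLIN1, 17 for COL3A1, 20 for CDH5 and PLIN4, 38 for COL1A1 and none for ADIPOQ. CDH5 had 6 to 20 counts in the normoxia libraries with ATRA and at most 1 in any other library. In bulk RNA, fewer cells of a type and less RNA per cell cannot be told apart.

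Per kilobase of exon, CYP24A1 was the most abundant of the 10 transcripts in each of the 6 groups. In normoxia with vehicle its level was 256.4 ± 15.9 CPM per kilobase (SD, n = 2), followed by CYP2S1 at 40.0, CYP4F11 at 23.1, POR at 20.1, CYP1B1 at 13.4, AHR at 10.8 and CYP4F3 at 9.31. VDR stood at 0.544, CYP1A1 at 0.106 and CYP27A1 at 0. In that group the library ranges of CYP4F11 and POR overlapped, as did those of CYP1A1 and CYP27A1, and the other neighbours in the order were apart. In hyperoxia with vehicle CYP24A1 stood at 121.8 CPM per kilobase and CYP1B1 came next at 53.1, ahead of CYP4F11 at 36.5 and CYP2S1 at 23.5, and no neighbours overlapped. With ATRA, CYP24A1 reached 434.8 ± 61.3 CPM per kilobase in hyperoxia and 534.3 ± 42.7 in normoxia (SD, n = 3), with CYP2S1 second in both at 84.6 and 87.6. Exon lengths are from GENCODE 44, which may differ from the annotation used for counting.

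**Figure D1:**
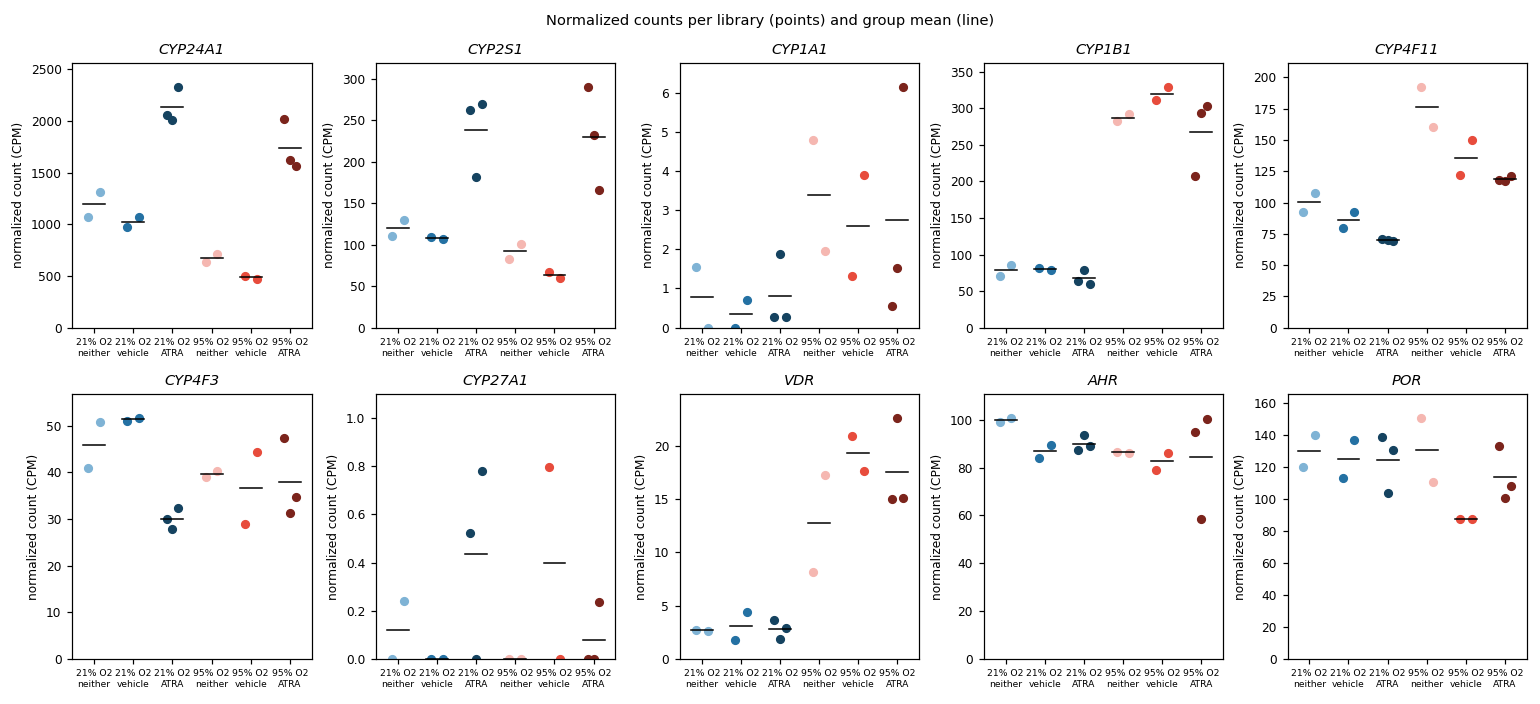
Normalized counts (CPM, linear axes from 0) of the 10 genes in the 14 labelled libraries, with 1 point per library and a line at the group mean. CYP24A1 and CYP2S1 are highest in the ATRA groups, and CYP1B1 and VDR are higher in every 95% oxygen library than in any 21% oxygen library.

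The first comparison asks what hyperoxia did without ATRA, in libraries that received the vehicle. Of the 9 genes that passed the filter on low counts, 3 rose in hyperoxia (CYP1B1, CYP4F11 and VDR) and 3 fell (CYP24A1, CYP2S1 and POR), at an adjusted p under 0.05 from edgeR's quasi-likelihood test over 14957 genes. Over all genes tested, 17.5% were called, 8.68% higher and 8.81% lower, a total of 2616 genes that was 1386 to 1523 without any 1 of the 4 vehicle libraries. The median log2 fold change was -0.07 over the 9 genes and 0.01 over all genes. CYP27A1 was not tested, and CYP1A1 passed the filter through only 2 hyperoxia libraries, with 22 and 26 counts.

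CYP24A1 (chromosome 20, 54143538 to 54173986 of GRCh38.p14, minus strand) had 499.4 and 472.1 CPM in the 2 hyperoxia libraries with vehicle and 977.3 and 1067 CPM in the 2 normoxia libraries with vehicle. The groups did not overlap, and the level was 2.11-fold lower in hyperoxia (log2 fold change -1.07, standard error 0.14, adjusted p = 8.65e-06 from the edgeR test). VDR (chromosome 12, 47841537 to 47904994, minus strand), whose protein controls CYP24A1, went the other way. Its normalized count was 20.9 and 17.6 CPM in hyperoxia, from 79 and 100 counts, and 1.74 and 4.43 CPM in normoxia, from 5 and 25 counts. VDR was thus 5.80-fold higher in hyperoxia (log2 fold change 2.54, standard error 0.48, adjusted p = 0.000674 in edgeR). The untreated libraries gave the same directions for both genes. There, CYP24A1 had 631 and 709.8 CPM in hyperoxia and 1071 and 1311 CPM in normoxia (log2 fold change -0.83, standard error 0.15, adjusted p = 0.00142 in edgeR). VDR had 8.19 and 17.3 CPM against 2.73 and 2.64 CPM (log2 fold change 2.22, standard error 0.61, adjusted p = 0.0217). Without the library that stood apart, these 2 values were -0.75 (adjusted p = 0.00863) and 2.67 (adjusted p = 0.00186). The VDR call in untreated libraries was lost without normoxia replicate 1 (adjusted p = 0.163) or replicate 2 (adjusted p = 0.135), with log2 fold changes of 2.21 and 2.16. Without untreated hyperoxia replicate 2 it was 1.54 (adjusted p = 0.0347). With vehicle, the VDR difference was 3.42 without normoxia replicate 2 (adjusted p = 0.00237) and 2.08 without normoxia replicate 1 (adjusted p = 0.0213).

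CYP2S1, an extrahepatic P450 of epithelial tissues (chromosome 19, 41193219 to 41207539, plus strand), had 67.3 and 60.2 CPM in hyperoxia and 109.8 and 107.3 CPM in normoxia with vehicle. It was 1.71-fold lower in hyperoxia (log2 fold change -0.77, standard error 0.22, adjusted p = 0.0157 in edgeR). That call was lost when vehicle libraries were left out, with adjusted p = 0.0633 without normoxia replicate 1, 0.061 without normoxia replicate 2 and 0.123 without hyperoxia replicate 2. In untreated libraries CYP2S1 had 83.1 and 100.7 CPM in hyperoxia and 110.2 and 130 CPM in normoxia, which also did not overlap, but the log2 fold change of -0.39 missed the threshold (adjusted p = 0.279, and 0.629 without the library that stood apart). In both sets of controls, therefore, the 2 P450 genes that responded to ATRA (described below) had their lower level in hyperoxia, and for CYP24A1 alone the call was made in both.

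CYP1B1, which hydroxylates estradiol and aromatic hydrocarbons (chromosome 2, 38067509 to 38076151, minus strand), had 310.7 and 328.9 CPM in hyperoxia with vehicle, against 82.0 and 78.9 CPM in normoxia, a 3.98-fold difference (log2 fold change 1.99, standard error 0.18, adjusted p = 6.22e-08 in edgeR). The untreated libraries had 282 and 292.2 CPM against 70.8 and 85.9 CPM (log2 fold change 1.88, standard error 0.19, adjusted p = 8.30e-06 in edgeR, and 1.90 with adjusted p = 8.91e-07 without the library that stood apart). CYP1A1, like CYP1B1 a known target of AHR (chromosome 15, 74719542 to 74725528, minus strand), was near the limit of detection. Its raw counts were 5 and 22 in hyperoxia with vehicle, against 0 and 4 in normoxia with vehicle, and 24 and 6 against 8 and 0 in untreated libraries (log2 fold change 2.04, adjusted p = 0.406, and 1.24 with adjusted p = 0.754 without the library that stood apart). The log2 fold change of 2.56 with vehicle had a 95% interval from -0.62 to 5.74 and an adjusted p of 0.277 in edgeR, so a difference in CYP1A1 was not detectable at this depth. AHR itself (chromosome 7, 17298652 to 17346147, plus strand) had 79.0 and 86.3 CPM in hyperoxia with vehicle, against 84.1 and 89.6 CPM in normoxia, and the groups overlapped. The log2 fold change of AHR was -0.07 with a 95% interval from -0.48 to 0.34 (adjusted p = 0.862 in edgeR). In untreated libraries AHR had 86.7 and 86.3 CPM against 99.3 and 100.7 CPM, which did not overlap, with a log2 fold change of -0.21 (adjusted p = 0.513, and -0.22 with adjusted p = 0.665 without the library that stood apart). In GENCODE 44, 30.8% of the 50-base windows of AHR transcripts also occur in another annotated locus. In RefSeq, the only gene overlapping AHR was LOC101927609, a long noncoding RNA with 16 counts in the 14 libraries together. Whether some AHR reads were left uncounted was not tested.

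The 2 CYP4F genes lie on chromosome 19 within a cluster of related genes and hydroxylate fatty acids, including leukotriene B4 in the case of CYP4F3. CYP4F11 (15912377 to 15934867, minus strand) had 121.7 and 149.9 CPM in hyperoxia with vehicle, against 79.6 and 92.2 CPM in normoxia, and rose (log2 fold change 0.66, standard error 0.16, adjusted p = 0.00444 in edgeR). This call was lost without normoxia replicate 1 (adjusted p = 0.115) or hyperoxia replicate 2 (adjusted p = 0.177). In untreated libraries CYP4F11 had 192.2 and 160.3 CPM against 92.6 and 107.5 CPM (log2 fold change 0.82, adjusted p = 0.00221 in edgeR, 0.0209 without the library that stood apart and 0.0587 without untreated normoxia replicate 1). CYP4F3 (15640897 to 15662825, plus strand) had 28.9 and 44.3 CPM in hyperoxia with vehicle, against 51.1 and 51.6 CPM in normoxia. Its libraries also did not overlap, but the log2 fold change of -0.48 had an interval from -0.99 to 0.03 and did not pass the test (adjusted p = 0.211 in edgeR). Untreated libraries had 38.95 and 40.4 CPM of CYP4F3 against 40.95 and 50.9 CPM (log2 fold change -0.21, adjusted p = 0.62, and -0.19 with adjusted p = 0.785 without the library that stood apart). For CYP4F3, 9.29% of 50-base windows are shared with other genes, chiefly CYP4F2 and CYP4F8, against 0.824% for CYP4F11, so part of its count is uncertain. In the 14 libraries together, CYP4F2 had 20 counts and CYP4F8 had 7, against 2359 for CYP4F3.

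POR (chromosome 7, 75915155 to 75986855, plus strand) had 87.5 and 87.4 CPM in hyperoxia with vehicle, against 113 and 136.9 CPM in normoxia. The fall was small (log2 fold change -0.52, standard error 0.17, adjusted p = 0.0423 in edgeR), and the call was lost without hyperoxia replicate 1 (adjusted p = 0.167), hyperoxia replicate 2 (adjusted p = 0.171) or normoxia replicate 2 (adjusted p = 0.337). The untreated libraries overlapped for POR, at 150.2 and 110.4 CPM in hyperoxia and 119.5 and 139.8 CPM in normoxia, with a log2 fold change of 0.01 (interval -0.40 to 0.42, adjusted p = 0.973) that was -0.24 (adjusted p = 0.588) without the library that stood apart. POR overlaps TMEM120A on the opposite strand, which held 20.4% as many counts, but only at the end of POR (TMEM120A spans 75986831 to 75994595). CYP27A1, the mitochondrial sterol 27-hydroxylase (chromosome 2, 218782147 to 218815293, plus strand), had 10 counts in the 14 libraries together and at most 3 in any one.

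Over the 9 genes tested, the untreated libraries gave 3 genes higher in hyperoxia (CYP1B1, CYP4F11 and VDR) and 1 lower (CYP24A1), where 15.2% of 15339 genes were called (7.57% higher and 7.58% lower). That total of 2324 genes was 7364 without untreated hyperoxia replicate 2, and 969 or 1393 without untreated normoxia replicate 1 or 2. The same 4 genes were called without the library that stood apart. The interaction term for the hyperoxia effect in vehicle against untreated libraries called 0 of the 9 genes in edgeR (0 at an unadjusted p under 0.05, 0 in DESeq2, 0 without the library that stood apart), where 0.00652% of all genes were called.

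Other genes moved with this comparison. Of 6 epithelial markers, 4 fell in hyperoxia with vehicle (KRT8, KRT18, KRT19 and CDH1, log2 fold changes -1.74, -2.13, -1.58 and -2.17), and their summed level over the 6 was 3317 to 3495 CPM in hyperoxia with vehicle, against 7669 to 8567 CPM in normoxia with vehicle. The summed level of 10 markers of other cell types was 62.3 to 73.6 CPM against 30.9 to 41.4 CPM, and CD68 made up most of it (66.0 ± 7.82 against 21.9 ± 6.39 CPM, SD, n = 2). Of the 5 tested, CD68 was called higher (log2 fold change 1.63, adjusted p = 2.25e-05) and COL1A1 lower (-3.30, adjusted p = 0.0202), only 1 of the 5 was positive and the median was -2.09, with ADIPOQ at 0 throughout. The part of these shifts in the results above was not tested.

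The next comparison asks what ATRA did at each oxygen exposure. CYP24A1 and CYP2S1 rose with ATRA in both, and none of the other 7 genes tested was called. In normoxia 1.25% of all genes were called (0.816% higher and 0.435% lower), and in hyperoxia 2.21% (1.52% higher and 0.695% lower). The same vehicle libraries serve in these comparisons and in those of oxygen exposure.

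In normoxia, CYP24A1 had 2056, 2011 and 2326 CPM with ATRA, against the 977.3 and 1067 CPM with vehicle. Every ATRA library was above both vehicle libraries, and the rise was 2.08-fold (log2 fold change 1.06, standard error 0.13, adjusted p = 5.80e-05 in edgeR). In hyperoxia it had 2014, 1625 and 1563 CPM with ATRA, against 499.4 and 472.1 CPM, a 3.57-fold rise (log2 fold change 1.84, standard error 0.13, adjusted p = 2.94e-08 in edgeR). CYP2S1 had 262.1, 181 and 270.1 CPM with ATRA in normoxia, against 109.8 and 107.3 CPM, a 2.19-fold rise (log2 fold change 1.13, standard error 0.20, adjusted p = 0.00274 in edgeR). That call rested on both vehicle libraries, with adjusted p = 0.0561 without normoxia vehicle replicate 1 and 0.0763 without replicate 2. In hyperoxia CYP2S1 had 289.9, 232.3 and 166.4 CPM with ATRA, against 67.3 and 60.2 CPM, a 3.61-fold rise (log2 fold change 1.85, standard error 0.20, adjusted p = 1.36e-05 in edgeR). The lowest ATRA library was thus still above every vehicle and untreated library at both exposures for both genes.

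The remaining genes gave the following values. VDR had 14.96, 22.6 and 15.1 CPM with ATRA in hyperoxia and 3.65, 1.87 and 2.86 CPM with ATRA in normoxia. These ranges overlapped those with vehicle, and the log2 fold changes of ATRA on VDR were -0.15 in hyperoxia (interval -0.95 to 0.66, adjusted p = 0.922) and -0.22 in normoxia (interval -1.27 to 0.83, adjusted p = 0.965). CYP24A1 therefore rose with ATRA where no change of VDR was detected at the depth of 5 to 100 counts per library. CYP1B1 had 207.1, 293.1 and 303.4 CPM with ATRA in hyperoxia and 63.9, 79.0 and 60.1 CPM in normoxia (log2 fold changes -0.26, adjusted p = 0.48, and -0.25, adjusted p = 0.781). CYP1A1 had 3, 4 and 26 counts with ATRA in hyperoxia and 1, 6 and 1 in normoxia. AHR had 95.0, 58.5 and 100.3 CPM with ATRA in hyperoxia and 87.4, 93.6 and 89.3 CPM in normoxia, with a log2 fold change of 0.05 at each exposure (adjusted p = 0.948 and 0.982).

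CYP4F11 was tight with ATRA, at 117.9, 117.1 and 120.9 CPM in hyperoxia and 71.2, 69.9 and 69.2 CPM in normoxia, below the vehicle libraries in both cases. The log2 fold changes of -0.20 and -0.30 did not pass the test (adjusted p = 0.584 and 0.578 in edgeR). CYP4F3 had 30, 27.8 and 32.3 CPM with ATRA in normoxia, against 51.1 and 51.6 CPM, a log2 fold change of -0.77 with an unadjusted interval from -1.24 to -0.30 that missed the threshold over all genes (adjusted p = 0.126). In hyperoxia CYP4F3 had 47.4, 31.4 and 34.7 CPM with ATRA and overlapped the vehicle libraries (log2 fold change 0.05, adjusted p = 0.956). POR had 132.9, 100.3 and 108.1 CPM with ATRA in hyperoxia, all above the 87.5 and 87.4 CPM with vehicle, a difference of 0.39 on the log2 scale that missed the threshold (standard error 0.16, adjusted p = 0.275). In normoxia it had 138.2, 103.3 and 130.1 CPM with ATRA (log2 fold change -0.02, adjusted p = 0.994).

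Whether ATRA acted differently at the 2 oxygen exposures was tested by the interaction term. The ATRA effect on CYP24A1 was larger in hyperoxia by 0.78 on the log2 scale (standard error 0.18, interval 0.41 to 1.15), but with adjustment over all genes this did not pass (adjusted p = 0.124 in edgeR). DESeq2 gave the same difference of 0.78 with an adjusted p of 2.64e-05. Without normoxia ATRA replicate 3 the edgeR value was 0.83 (adjusted p = 0.0477). Over the 5 alternatives that left no library out, the difference ran from 0.62 to 0.78, with adjusted p up to 0.757 in edgeR. For CYP2S1 the difference was 0.72 (standard error 0.27, adjusted p = 0.531) and for CYP4F3 0.82 (standard error 0.32, adjusted p = 0.557). In all, edgeR called 0 of the 9 genes and 0.14% of all genes (0.1% higher and 0.0401% lower). At an unadjusted p under 0.05 in edgeR there were 3 of the 9 (CYP24A1, CYP2S1 and CYP4F3), and 1078 of all 14957 genes. DESeq2 called 1 of the 9, and 103 of all genes.

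In ATRA-treated libraries, hyperoxia was again set against normoxia. CYP1B1, CYP4F11 and VDR were higher in hyperoxia and none of the 9 genes was called lower, where 22.7% of all genes were called (11.4% higher and 11.3% lower). The log2 fold changes were 1.99 for CYP1B1 (standard error 0.15, adjusted p = 3.63e-09), 0.76 for CYP4F11 (standard error 0.13, adjusted p = 0.000184) and 2.61 for VDR (standard error 0.41, adjusted p = 7.79e-05), and each of these genes had its 3 hyperoxia libraries above its 3 normoxia libraries. CYP24A1 with ATRA overlapped between the exposures, 1563 to 2014 CPM against 2011 to 2326 CPM, with a log2 fold change of -0.30 (interval -0.53 to -0.07, adjusted p = 0.059). That value was past the threshold in DESeq2 (adjusted p = 0.00805), in edgeR with RLE size factors (0.0496) or without the filter (0.0363), and in edgeR without hyperoxia ATRA replicate 1 (0.0119), normoxia ATRA replicate 2 (0.0482) or normoxia vehicle replicate 2 (0.0499). In the other edgeR fits the CYP24A1 value did not pass, with adjusted p up to 0.191. CYP2S1 with ATRA also overlapped between the exposures (log2 fold change -0.05, interval -0.40 to 0.30, adjusted p = 0.868). AHR, POR, CYP4F3 and CYP1A1 had log2 fold changes of -0.07, -0.12, 0.35 and 1.80 (adjusted p = 0.793, 0.603, 0.251 and 0.297).

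**Figure D2:**
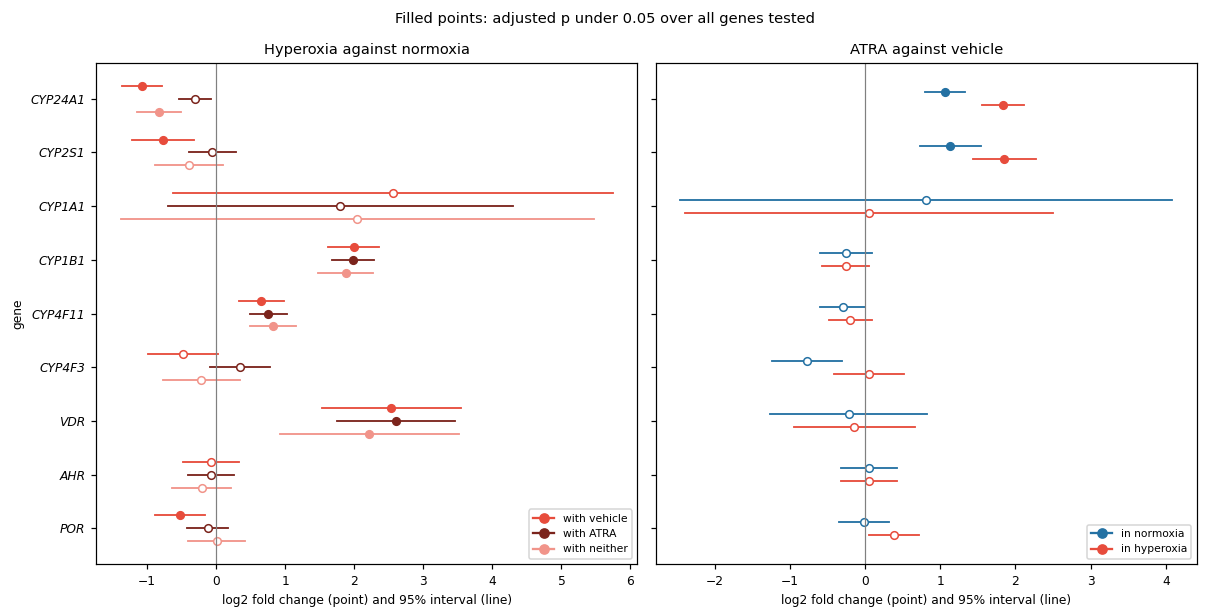
Log2 fold changes (points) with 95% intervals (lines) of the 9 genes tested, for hyperoxia against normoxia (left, by treatment) and ATRA against vehicle (right, by oxygen exposure), on separate linear axes. Filled points passed an adjusted p of 0.05, and CYP1B1, CYP4F11 and VDR are filled and positive in all 3 oxygen comparisons.

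Epithelial markers also moved with ATRA in hyperoxia, in the direction of CYP24A1 and CYP2S1. Of the 6 markers, 5 rose in hyperoxia (KRT8, KRT18, KRT19, KRT7 and CDH1, log2 fold changes 0.69 to 1.28) and none was called in normoxia, and the summed level was 5516 to 7001 CPM with ATRA against 3317 to 3495 CPM with vehicle in hyperoxia. Their part in the results was not tested. As a check of the treatment, the retinoid-responsive genes DHRS3 and STRA6 rose with ATRA at both exposures (log2 fold changes 1.63 and 1.47 in normoxia, 1.86 and 1.86 in hyperoxia). STRA6, unlike DHRS3, was also called higher in hyperoxia than in normoxia without ATRA, with vehicle and in untreated libraries. Untreated libraries had 163.2 to 206.1 CPM of STRA6 in hyperoxia and 41.3 to 48.9 CPM in normoxia. Normoxia libraries with ATRA had 164.8 to 201.7 CPM.

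Vehicle was also compared with no treatment. None of the 9 genes was called in normoxia (0 at an unadjusted p under 0.05, 0 in DESeq2). In hyperoxia none was called either (0 in DESeq2), with log2 differences from -0.58 to 0.61, where 0.00652% of all genes were called. At an unadjusted p under 0.05 in edgeR, 4 of the 9 were lower with vehicle in hyperoxia. Of all 15339 genes, 738 were lower and 1366 differed in either direction. The 4 were CYP24A1, CYP2S1, CYP4F11 and POR (log2 differences -0.465, -0.525, -0.376 and -0.58). The same vehicle libraries are the baseline for the ATRA effects in hyperoxia. The number called among the 9 was also 0 without the library that stood apart. With that library as the whole of the untreated hyperoxia group (without replicate 2), POR was called, among 5630 of all genes against 1 in the full fit.

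The wider pathways were read from lists of genes. Of 47 other P450 genes outside the CYP26 family, 11 had 0 counts in all 14 libraries, 22 had a mean below 1 CPM and 3 exceeded 10 CPM (CYP51A1, CYP20A1 and CYP2R1, with means of 81.8, 35.8 and 12.03 CPM). CYP51A1, the sterol 14-demethylase of cholesterol synthesis, was the only one of the 14 tested to be called in any of the 5 comparisons among vehicle and ATRA libraries. It had 61.7 ± 7.59 CPM in hyperoxia and 108.1 ± 5.94 CPM in normoxia with vehicle (SD, n = 2), a log2 fold change of -0.81 (adjusted p = 0.00178 in edgeR, and 0.052 without hyperoxia vehicle replicate 2). With ATRA, hyperoxia gave a log2 fold change of -0.42 (adjusted p = 0.038), a call lost in 5 of 10 fits that each left out 1 library.

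Of 13 genes for electron transfer to P450 and heme turnover, 2 rose and 2 fell in hyperoxia with vehicle, against 17.5% of all genes called, and the list's median log2 fold change was 0.08. FDXR, the reductase that feeds the mitochondrial P450 enzymes, had 151.4 and 161.5 CPM in hyperoxia and 43.8 and 40.3 CPM in normoxia (log2 fold change 1.90, standard error 0.18, adjusted p = 1.88e-07 in edgeR). With ATRA it had 233.8, 229.2 and 250 CPM in hyperoxia and 42.0, 33.4 and 55.2 CPM in normoxia (log2 fold change 2.44, adjusted p = 2.61e-10). FDXR was thus higher in every hyperoxia library than in any normoxia library, while POR, the microsomal reductase, was not. The ferredoxin genes FDX1 and FDX2 were not called in either comparison. With vehicle, mean FDX1 was 10.51 CPM in hyperoxia and 14.02 CPM in normoxia, and with ATRA it was 10.38 CPM at both. Mean FDX2 was higher in hyperoxia, at 19.61 against 9.117 CPM with vehicle and 18.78 against 11.45 CPM with ATRA. HMOX1, which degrades heme, rose with vehicle from 387.9 ± 11.3 to 1072 ± 44.6 CPM (SD, n = 2, log2 fold change 1.47, adjusted p = 1.41e-07). The cytochrome b5 genes CYB5A and CYB5B fell with vehicle (log2 fold changes -1.16 and -1.20, adjusted p = 0.00917 and 3.04e-06). The CYB5A call was lost without hyperoxia vehicle replicate 1 (adjusted p = 0.121) or normoxia vehicle replicate 2 (adjusted p = 0.111). With ATRA, 3 genes of the list were higher in hyperoxia than in normoxia (FDXR, HMOX1 and CYB5R2) and 2 lower (CYB5A and CYB5B), with the calls of CYB5A and CYB5R2 lost in 3 and 8 of 10 fits that each left out 1 library. FDXR was also the only gene of the list called for ATRA, in hyperoxia (log2 fold change 0.60, adjusted p = 0.0417), a call lost in 8 of 10 fits that each left out 1 library.

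Among 12 tested genes of the AHR pathway, 1 rose and 2 fell in hyperoxia with vehicle, against 17.5% of all genes called (median log2 fold change -0.11). The riser was TIPARP, a target and feedback inhibitor of AHR, with 171.8 and 188.5 CPM in hyperoxia and 31.3 and 30.7 CPM in normoxia (log2 fold change 2.54, standard error 0.22, adjusted p = 3.82e-08 in edgeR). With ATRA the TIPARP difference was 2.01 (adjusted p = 3.30e-08). NQO1, ALDH3A1 and AHRR, also known as targets of AHR, were not called with vehicle (log2 fold changes 0.15, -0.19 and 0.28, adjusted p = 0.464, 0.456 and 0.684). HSP90AB1, a chaperone of unliganded AHR, and SLC7A5, an amino acid transporter, fell (log2 fold changes -0.60 and -0.52, adjusted p = 0.00111 and 0.00321). Among ATRA libraries, TIPARP and ALDH3A1 were higher in hyperoxia (0.64 for ALDH3A1, adjusted p = 0.000649) and HSP90AB1 and its co-chaperone PTGES3 lower (-0.59 and -0.33, adjusted p = 0.000135 for HSP90AB1), with the PTGES3 call lost in 5 of 10 fits that each left out 1 library. ATRA raised 1 gene of the list in hyperoxia, SLC7A5 (0.61 on the log2 scale, adjusted p = 0.00267, 0.118 without hyperoxia vehicle replicate 1). With ATRA in normoxia 1 gene was called: ALDH3A1, an aldehyde dehydrogenase, had 825.3, 761.5 and 946.5 CPM against 1571 and 1819 CPM with vehicle (log2 fold change -1.005, adjusted p = 0.00018).

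Of 13 tested genes of the vitamin D pathway, 3 rose and 1 fell in hyperoxia with vehicle, against 17.5% of all genes called (median log2 fold change 0.16). IGFBP3, a carrier of insulin-like growth factors known to respond to vitamin D and to retinoids, had 292.6 and 272.2 CPM in hyperoxia and 64.7 and 66.3 CPM in normoxia (log2 fold change 2.11, standard error 0.16, adjusted p = 8.28e-09 in edgeR). RXRB, a dimer partner of VDR, rose by 0.72 (adjusted p = 0.0214), but the call was lost without any 1 of the 4 vehicle libraries (adjusted p up to 0.212 over the alternatives). MED1 and NCOA3, coactivators of nuclear receptors, had log2 fold changes of 0.59 and -0.59 (adjusted p = 0.0148 and 0.00571). With ATRA, 2 of the 13 were higher in hyperoxia than in normoxia (RXRA and RXRB, log2 fold changes 0.59 and 0.80, adjusted p = 0.0134 and 0.00175) and none lower, and the RXRA call was lost without hyperoxia ATRA replicate 1 (0.101) or normoxia ATRA replicate 1 (0.0674). With vehicle, MED1 was not called without hyperoxia vehicle replicate 1 (0.154), replicate 2 (0.0672) or normoxia vehicle replicate 2 (0.227), nor NCOA3 without hyperoxia vehicle replicate 1 (0.0566). With ATRA in normoxia, IGFBP3 was the only gene of the list called, at 470.5, 378.3 and 326.9 CPM (log2 fold change 2.58, standard error 0.16, adjusted p = 1.62e-09). In hyperoxia it had 510.9, 468.3 and 446 CPM with ATRA and rose by 0.75 (adjusted p = 0.00308, 0.0556 without hyperoxia vehicle replicate 1 and 0.109 without replicate 2), and MED1 fell by 0.56 (adjusted p = 0.0495), a call lost in 7 of 10 fits that each left out 1 library. IGFBP3, like CYP24A1, rose with ATRA at both exposures, but its level with vehicle was higher in hyperoxia where that of CYP24A1 was lower.

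**Figure D3:**
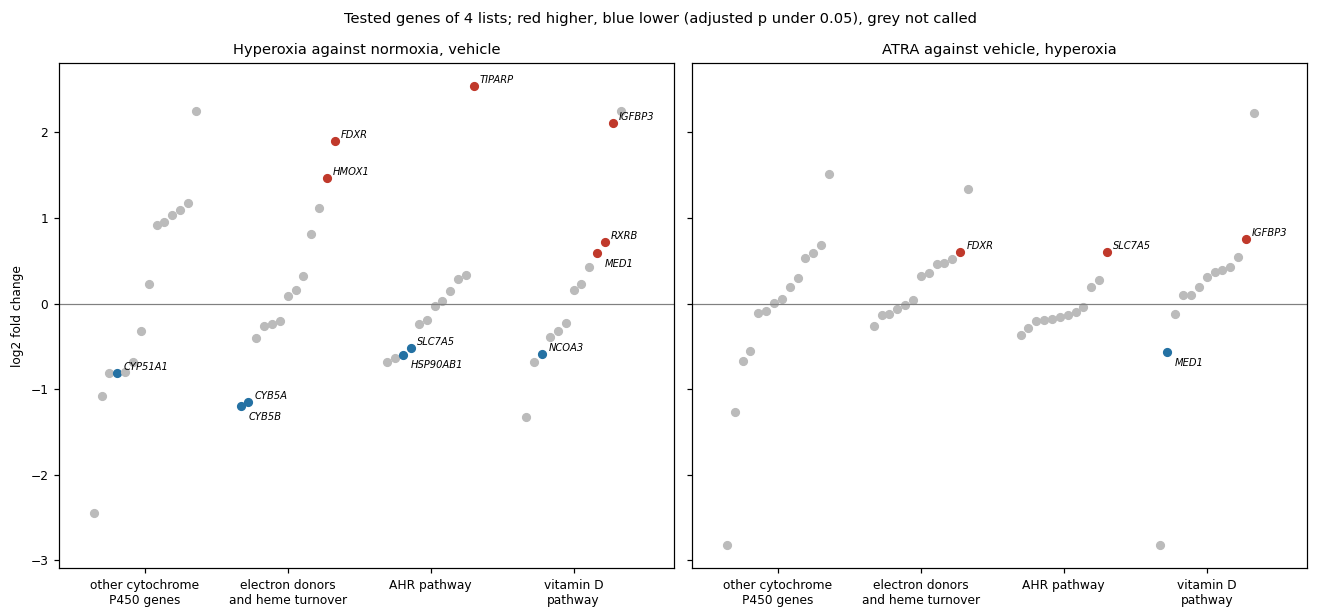
Log2 fold changes (linear axis) of the tested genes of 4 lists, with 1 point per gene in order of value, for hyperoxia against normoxia with vehicle (left) and ATRA against vehicle in hyperoxia (right). Named points in red (higher) and blue (lower) passed an adjusted p of 0.05, and CYP2R1 and CYP27B1 stand in both the first and the last list.

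As a description, the 3 tested genes whose log2 CPM followed that of CYP24A1 most closely over the 14 libraries were ELF3 (Pearson r = 0.98), MPRIP (r = 0.97) and CYP2S1 (r = 0.96). For VDR they were KCNQ3, NECTIN4 and TXNL4B (r = 0.98, 0.98 and 0.97). For CYP1A1, at 0 to 26 counts, they were DDX31, RNF6 and TET3 (r = 0.89, 0.87 and 0.86). The libraries share groups, depth and exposure, so these values carry no test. They include the untreated hyperoxia library that stood apart, with 24 counts of CYP1A1, and were not computed without it.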

How the data were processed

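RNA-seq counts of 15 libraries of A549 cells were analysed, 14 of them in 6 labelled groups. As deposited, the values are raw read counts per gene symbol without normalization: the authors trimmed reads with Trimmomatic 0.38, dropped those under 50 bases, aligned the rest to hg38 with HISAT2 and counted them with HTSeq. Libraries came from a stranded kit. Versions of the latter tools, the annotation release and the strand and overlap settings are not given in the sources used here. The 5 rows of reads counted on no gene were left out. Reads in no feature made up 48.65 to 55.28% and reads with several alignments 7.83 to 8.91% of a library, and 21.64 to 24.83% were counted on genes.

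Tests used edgeR 4.0.16 (R 4.3.3). A filter (filterByExpr, minimum count 10, minimum total 15) removed weakly counted genes, libraries were scaled by TMM, and a quasi-likelihood model was fitted to 10 libraries in 4 groups (14957 genes) or, where untreated libraries enter, to 14 libraries in 6 groups (15339 genes). Calls have a Benjamini-Hochberg adjusted p under 0.05 over all genes tested, and intervals are unadjusted 95% intervals. CPM are scaled over the 14 libraries, and 3 counts were taken as the limit of detection, which covers counting error only. DESeq2 1.42.0, RLE size factors, no filter, other sets of libraries and leaving out each library were alternatives. Procedures were tested on simulated data. No pair of replicate libraries agreed within sampling noise (chi-square per degree of freedom 3.98 to 31.51).

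The 10 genes and the other lists were chosen with earlier results of these data known. From the other lists, up to 8 genes called in any comparison of the 10 libraries are named, besides NQO1, AHRR, the markers and 3 abundant P450 genes, which were named after their values were seen. Positions and promoters are from RefSeq for GRCh38.p14, exon lengths from GENCODE 44. Figures used Python 3.11.15 and matplotlib 3.10.9. The library without a group is titled as hyperoxia, but its treatment label names another procedure.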

Additional observations from a re-analysis of the deposited data

Results flagged for a closer look

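IGFBP3 differed in its response to ATRA between the oxygen exposures. The log2 effect of ATRA was 2.58 in normoxia and 0.75 in hyperoxia, and the difference of -1.828 (standard error 0.20) passed the interaction test over all genes (adjusted p = 0.00013 in edgeR). With vehicle, the gene had 64.7 and 66.3 CPM in normoxia and 292.6 and 272.2 CPM in hyperoxia, and with ATRA it had 326.9 to 510.9 CPM over the 6 libraries of both exposures.

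The library that the labels put in no group entered no comparison. On a scaling over all 15 libraries, its CYP1B1 level was 330.7 CPM, above the 8 vehicle and untreated libraries, which had 71.9 to 87.1 CPM in normoxia and 275.2 to 328.3 CPM in hyperoxia. Its CYP27A1 level was 0.8726 CPM, from 4 counts, against at most 0.79 CPM in the same 8 libraries.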

How the results depend on the processing

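Of 46 gene-level results for the 9 genes tested, 17 were called. Their direction was the same in all 280 alternatives and the call was kept in 261. Of 464 alternatives of the other 29 results, 10 were called and 25 changed sign. Among list genes, 418 of 495 alternatives of 31 called results stayed called, with 0 reversed. No paired or blocked fit was made, because the labels give no replicate numbers shared between groups. Titles hold running library numbers, which the labels do not tie to sets, so whether libraries were processed in sets was not tested.

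For the ATRA effect between exposures, 0 genes were called in the reported fit, and 1 (CYP24A1) with DESeq2 or without the filter. With each library left out the count was 0 to 1. In untreated libraries 4 genes were called, 1 (CYP1B1) when only the groups compared were fitted, and 2 to 4 with a library left out. With a library left out, counts were 3 to 6 for hyperoxia with vehicle (lowest without hyperoxia vehicle replicate 2), 1 to 2 for ATRA in normoxia, and 0 to 1 for vehicle against no treatment in hyperoxia.

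With vehicle and untreated libraries pooled as controls, the log2 fold change of ATRA changed sign to -0.044 and -0.001 for AHR (normoxia and hyperoxia), -0.015 for CYP4F3 in hyperoxia and 0.117 for VDR in hyperoxia. POR in untreated libraries was -0.024 without the filter. Leaving out libraries gave ranges that crossed 0. For ATRA they were 0 to 0.097 (AHR, normoxia), -0.089 to 0.222 (AHR, hyperoxia), -0.225 to 0.396 (CYP4F3, hyperoxia), -0.15 to 0.134 (POR, normoxia) and -0.653 to 0.69 (VDR, normoxia). For hyperoxia they were -0.264 to 0.126 (CYP2S1 with ATRA), -0.218 to 0.089 (AHR with ATRA) and -0.235 to 0.158 (POR, untreated). The cause was not tested.

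POR in hyperoxia with vehicle lost its call in the fit of 14 libraries (adjusted p = 0.125) and with pooled controls (0.334, log2 fold change -0.23), and CYP2S1 in the fit of 14 libraries (0.0544). CYP4F3 was called there when only the groups compared were fitted (0.0474). Over all genes, the fit of 14 libraries moved calls from 2616 to 1420 (hyperoxia with vehicle), 3391 to 1975 (hyperoxia with ATRA), 187 to 70 and 331 to 116 (ATRA in normoxia and hyperoxia) and 21 to 4 (their difference). Pooled controls gave 2073 for hyperoxia with ATRA, 182 for ATRA in hyperoxia and 5 for the difference. Without the filter, ATRA gave 300 and 522 calls and their difference 91, and vehicle against no treatment gave 3 in normoxia (0 in the reported fit) and 89 in hyperoxia (1), and its hyperoxia effect 25 (1). DESeq2 gave 103 for the difference in ATRA effect, 10 for vehicle against no treatment in hyperoxia and 2 for the hyperoxia effect. With only the groups compared, hyperoxia gave 4665 calls with vehicle and 58 in untreated libraries (2324 in the reported fit), and the last 2 comparisons gave 0. With a library left out, calls were 1386 to 3175 for hyperoxia with vehicle, 56 to 267 for ATRA in normoxia and 83 to 449 in hyperoxia (each lowest without a vehicle library), 4 to 28 for their difference, 969 to 7364 in untreated libraries, and 1 to 5630 and 0 to 3759 for the last 2 comparisons. The last 3 were highest without untreated hyperoxia replicate 2, which leaves the library that stood apart alone in its group.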

Other observations

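In the library without a group, CYP24A1 had 544 CPM, CYP2S1 64.8 CPM and VDR 11.8 CPM. All 3 lie within the range of the 4 vehicle and untreated hyperoxia libraries (471.2 to 707 CPM, 60.1 to 100.3 CPM and 7.99 to 20.8 CPM) and outside that of the 4 normoxia libraries (987.8 to 1330 CPM, 109.1 to 131.8 CPM and 1.76 to 4.51 CPM). CYP4F11 had 131.8 CPM, CYP4F3 49.1 CPM, AHR 89.9 CPM and POR 91.8 CPM, and CYP1A1 had 6 counts.

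CYP27B1, the enzyme that makes the vitamin D hormone from its precursor, was looked at after its values were seen. It had 19 and 27 counts in the hyperoxia libraries with vehicle and at most 7 in any other labelled library of the study. No comparison passed the test for it (adjusted p = 0.206 for hyperoxia with vehicle and 0.197 for ATRA in hyperoxia, edgeR).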
